A study of Mus musculus with 6 samples.

Results

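Synaptic adhesion genes of the neurexin, neuroligin and cerebellin families were examined in the medial prefrontal cortex (mPFC) of mice trained with morphine or saline. The 8 genes were picked by name from the deposited table and were Nrxn2, Nrxn3, Nlgn1, Nlgn2, Nlgn3, Cbln1, Cbln2 and Cbln4. All 8 were among the 31763 genes of that table, and all 8 passed the filter on low counts, which kept 18970 genes. The tissue came from male C57BL/6J mice aged 8 to 10 weeks, for which no genetic change is named, with 3 samples per group. The saline group received saline (10 ml/kg, i.p.) and the morphine group received morphine (10 mg/kg, i.p.) during conditioned place preference (CPP) training, in which an injection is paired with a chamber. Both groups then stayed in the home cage without drug for about a week, were tested for retrieval of the place memory, and gave mPFC tissue. The sources do not say whether a sample is 1 mouse, so each p-value measures the spread between these samples, which may in part be technical.

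Neurexins are presynaptic membrane proteins that reach across the synaptic cleft, and neuroligins are their postsynaptic membrane partners. Cerebellins are secreted proteins that bridge neurexins to postsynaptic delta-type glutamate receptors and, for some members, to other receptors. Nlgn1 is known mainly from excitatory synapses, Nlgn2 from inhibitory synapses and Nlgn3 from both. The neurexin genes use several promoters, of which the upstream ones make the long alpha forms and an internal one makes the short beta forms. The comparison of morphine with saline asked whether the RNA of these genes differed after retrieval of the morphine-paired memory.

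Of the 5 neurexin and neuroligin genes among the 8, Nrxn3 alone was called (unadjusted p under 0.05, lower in morphine), and sequence is shown for it because its coding transcripts start at several places while 2 RNAs counted inside its introns were also called. The RefSeq promoter table (GRCm38.p6) held 7 entries for 4 of the 8 genes, namely Cbln4, Nlgn1, Nlgn2 and Nrxn3. The 3 Nrxn3 windows lie on the plus strand at chr12:88794254-88794553, chr12:88953140-88953439 and chr12:89812233-89812532, each with 250 bases before and 50 bases after an annotated start. Capitals mark the bases from the annotated start on. The start in window 1 lies 71.6 kb into the annotated gene, behind Nrxn3 exons that begin at 0, 2.13 and 2.81 kb. Whether transcription begins at the start in window 1 was not tested.
Nrxn3 window 1, most upstream coding start: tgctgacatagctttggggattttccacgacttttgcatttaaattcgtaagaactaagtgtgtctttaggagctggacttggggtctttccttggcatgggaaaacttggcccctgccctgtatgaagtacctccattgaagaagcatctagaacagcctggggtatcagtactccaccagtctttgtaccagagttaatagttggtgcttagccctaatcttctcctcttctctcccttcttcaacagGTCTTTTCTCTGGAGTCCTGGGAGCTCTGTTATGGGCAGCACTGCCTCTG
Nrxn3 window 2, inner coding start: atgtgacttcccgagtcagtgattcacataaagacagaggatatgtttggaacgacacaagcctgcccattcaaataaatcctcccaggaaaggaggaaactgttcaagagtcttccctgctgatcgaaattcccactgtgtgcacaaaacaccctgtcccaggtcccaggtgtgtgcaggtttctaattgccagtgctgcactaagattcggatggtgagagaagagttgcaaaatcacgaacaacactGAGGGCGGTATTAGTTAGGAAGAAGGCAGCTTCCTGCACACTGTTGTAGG
Nrxn3 window 3, start of the shortest coding transcripts: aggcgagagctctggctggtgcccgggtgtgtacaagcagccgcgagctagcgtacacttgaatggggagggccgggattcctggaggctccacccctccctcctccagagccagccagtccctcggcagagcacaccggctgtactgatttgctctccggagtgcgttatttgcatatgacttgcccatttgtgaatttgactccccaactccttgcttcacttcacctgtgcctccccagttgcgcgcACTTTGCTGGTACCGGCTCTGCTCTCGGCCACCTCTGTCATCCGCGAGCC
The GC content of these windows was 47.3%, 47.7% and 60.7%, against a median of 52.7% over 32851 promoter windows of that length. They held 2, 6 and 16 CG pairs, and the median window held 7. TATAAA (the TATA box), found in 13.6% of all windows on either strand, was in none of the 3, and TGACG (the cAMP response half-site), found in 20.8%, was in none either. GGGCGG (the GC box, in 35.7% of all windows) occurred once, in window 2. CANNTG (the E-box, in 72.3% of all windows) had 0, 1 and 5 matches in windows 1, 2 and 3. Matches are letters in a window and were not tied to any factor.

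The 2 RNAs inside Nrxn3 are Gm48692 and Gm48700, which the GENCODE vM21 annotation (GRCm38) puts in the TEC class, meaning transcripts that still await experimental support. Both are single intervals on the plus strand, as Nrxn3 is, and both lie wholly in its introns with 0 bases shared with its exons. Gm48692 covers chr12:89655723-89658101 and Gm48700 covers chr12:90068099-90072373. The first 150 bases of each are shown to make the counted interval identifiable.
Gm48692 start: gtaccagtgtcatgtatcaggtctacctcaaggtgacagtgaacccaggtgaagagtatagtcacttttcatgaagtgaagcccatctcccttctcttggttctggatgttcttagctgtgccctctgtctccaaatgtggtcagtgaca
Gm48700 start: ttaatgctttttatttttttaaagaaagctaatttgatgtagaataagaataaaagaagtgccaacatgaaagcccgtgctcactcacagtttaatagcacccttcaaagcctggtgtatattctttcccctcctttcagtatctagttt
The whole intervals, 2379 and 4275 bases long, had a GC content of 39.4% and 39.2%.

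The libraries held 17984153 to 23529592 counts. Saline sample 1 stood apart from the other 5. In it, 138 of 16678 genes with an average of at least 1 CPM (counts scaled to library size) were over 2 times higher than in any other library, as were 14 of 16 tested olfactory bulb markers. The summed level of that marker list was 948 CPM in saline sample 1 and 294 to 334 CPM in the others. The interneuron list (9 genes) also summed highest there, at 1235 CPM against 746 to 830 CPM, and the excitatory neuron list (7 genes) summed lowest, at 4052 CPM against 4739 to 5199 CPM. The neuron list had all 10 markers tested and sums of 7120 to 7803 CPM. Its genes are general neuron genes, so it does not check which brain region was sampled. Results are therefore given with and without saline sample 1. What this library contributes beyond its values was not tested. In bulk tissue, fewer cells of a type and less RNA per cell cannot be told apart.

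Compared as FPKM, which scales fragments to both gene length and library size, the 8 genes spanned a 47.1-fold range of mean level. Nlgn2 was highest at 56.5 ± 2.11 FPKM (SD, n = 6 libraries), followed by Nrxn3 at 42.7 ± 3.49 FPKM and Nrxn2 at 35.6 ± 1.82 FPKM. Cbln2 came next at 23.8 ± 1.60 FPKM, above Nlgn1 at 16.3 ± 0.969 FPKM and Nlgn3 at 10.7 ± 0.590 FPKM. Cbln4 and Cbln1 were lowest, at 3.47 ± 0.645 and 1.20 ± 0.734 FPKM. No neighbouring pair in this order had overlapping ranges over the 6 libraries, so the order was the same in each of them. The smallest step was that from Nrxn3 to Nrxn2, 1.20-fold. The order depends on the length used per gene, which is the same in every library, so agreement between libraries does not check it. For 12940 of 13336 genes checked, the deposited FPKM fitted a length within 1% of the merged annotated exons. Those exons cover 12605 bases for Nrxn3, whose longest annotated coding transcript has 7922 bases. The coefficient of variation across libraries was 61.3% for Cbln1 and 18.6% for Cbln4, and between 3.74% and 8.18% for the other genes.

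Of the 8 genes, 2 had an unadjusted p under 0.05, Nrxn3 and Cbln1, both lower in the morphine group. Over all 18970 genes tested, 7.72% had such a p and 4.96% had it with a lower level in morphine. At an adjusted p under 0.05, edgeR called 0 of the 8 genes and 0% of all genes. DESeq2 called 15 genes of the table at that level, none of them among the 8. Without saline sample 1, edgeR gave an unadjusted p under 0.05 for 0 of the 8 genes, against 11.7% of 18671 genes tested, and 186 genes of the table passed the adjusted threshold.

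**Figure D1:**
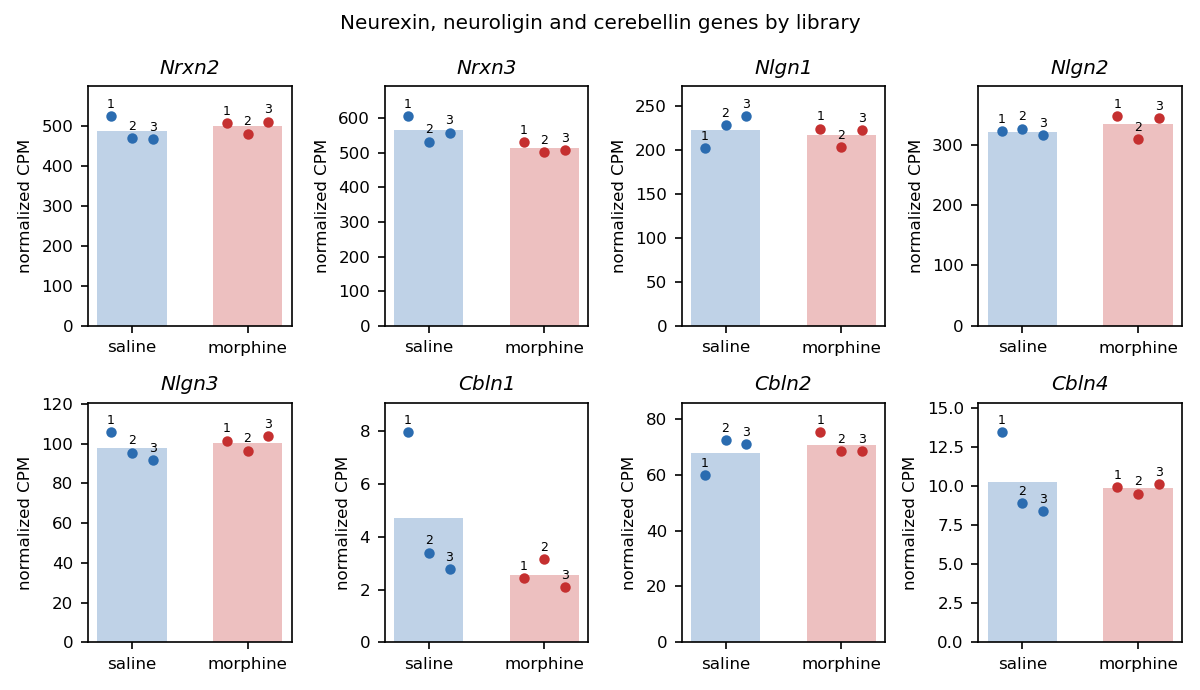
Normalized CPM of the 8 genes in each library, with blue for saline, red for morphine, a point per library marked with its sample number, and bars at the mean of 3. Nrxn3 is the one panel in which the lowest saline point (531.5 CPM) lies above the highest morphine point (530.3 CPM), and saline sample 1 stands alone in the Cbln1 panel at 7.94 CPM.

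Nrxn3 (chr12:88722876-90334935, plus strand, 1612.1 kb, 13 annotated transcripts) measured 606, 531.5 and 558 CPM in saline samples 1 to 3 and 530.3, 500.5 and 506 CPM in morphine samples 1 to 3. All 3 saline values lay above all 3 morphine values, although saline sample 2 and morphine sample 1 nearly met. Groups that did not overlap were found for 13.3% of all genes tested. The saline mean was 565 ± 37.7 CPM and the morphine mean 512 ± 15.8 CPM (SD, n = 3 each), a log2 fold change of -0.14 (SE 0.059, 95% interval -0.27 to -0.01), or 0.907-fold. The gene was called by the edgeR quasi-likelihood test at the unadjusted threshold, and its adjusted p was 0.626. Without saline sample 1, the highest of the 6, the log2 fold change was -0.09 and the call was lost (edgeR adjusted p = 0.541). The call was also lost on leaving out saline sample 3, morphine sample 2 or morphine sample 3, with log2 fold changes of -0.15, -0.12 and -0.13.

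Nrxn2 (chr19:6418731-6544169, plus strand, 125.44 kb, 18 transcripts), the other neurexin of the 8, did not share this pattern of values. It measured 524, 468 and 467 CPM in saline and 506, 480.3 and 510.4 CPM in morphine, with groups that overlapped. The means were 487 ± 32.7 and 499 ± 16.2 CPM, a log2 fold change of 0.04 (SE 0.059, 95% interval -0.10 to 0.17, edgeR adjusted p = 0.886). Without saline sample 1, again the highest of the 6, the value was 0.09 (edgeR adjusted p = 0.488).

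The ratio of Nrxn3 to Nrxn2 FPKM within a library removes whatever scales both genes alike. It was 1.27, 1.24 and 1.31 in saline and 1.15, 1.14 and 1.09 in morphine. All saline ratios lay above all morphine ratios, and saline sample 1 had the middle ratio of its group. Leaving out a library cannot make such groups overlap, so that step adds nothing here. The means were 1.27 ± 0.0334 and 1.13 ± 0.0336 (SD, n = 3 each), a difference of -0.18 on the log2 scale. No test is attached to this ratio, because the pair was set side by side with the single-gene values known. Every other ratio formed had groups that overlapped. These were Nlgn2 to Nlgn1, Nlgn1 to Nlgn3, Nlgn2 to Nlgn3, Cbln2 to Cbln4, Cbln2 to Cbln1 and Cbln4 to Cbln1. The share of all gene pairs with separated ratios was not computed.

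**Figure D2:**
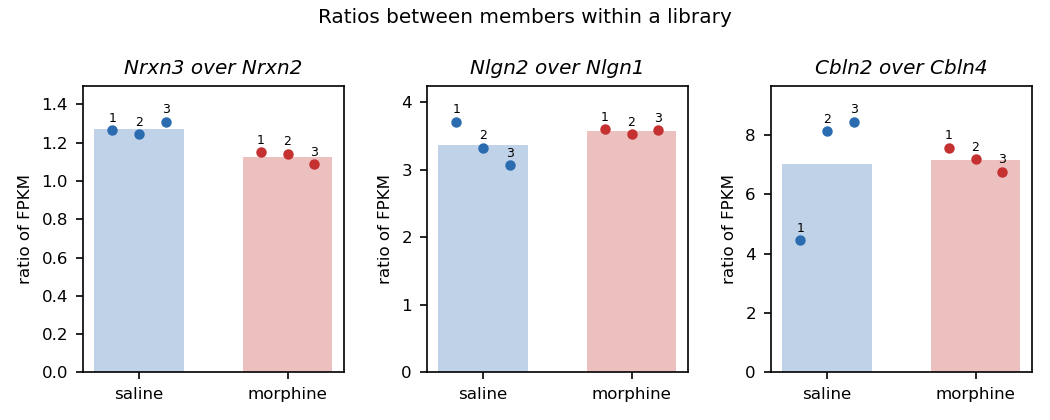
Ratios of FPKM between pairs of the genes within each library, with blue for saline, red for morphine, points marked with the sample number and bars at the mean of 3. The Nrxn3 to Nrxn2 ratio separates the groups (1.24 to 1.31 against 1.09 to 1.15), whereas the Nlgn2 to Nlgn1 and Cbln2 to Cbln4 ratios overlap.

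Inside Nrxn3, the intronic RNAs differed more than the gene that holds them. Gm48692, which lies 154.38 kb before the most downstream coding start (window 3), measured 25.5, 24.9 and 31.3 CPM in saline and 20.02, 20.7 and 16.0 CPM in morphine. The groups did not overlap, and the means were 27.2 ± 3.50 and 18.9 ± 2.53 CPM (SD, n = 3 each). The log2 fold change was -0.53 (SE 0.12, 95% interval -0.80 to -0.26), called by edgeR with an adjusted p of 0.506. Without saline sample 1 the value was -0.58 (from -0.53), and its adjusted p in the edgeR fit of 5 libraries was 0.0110. DESeq2 over 6 libraries gave an adjusted p of 0.0876, and DESeq2 without saline sample 1 gave 0.0149.

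Gm48700, 255.62 kb after the same start, gave like values from a separate interval. It measured 13.0, 12.6 and 14.6 CPM in saline and 9.51, 10.0 and 8.35 CPM in morphine, again without overlap. The means were 13.4 ± 1.04 and 9.30 ± 0.864 CPM, a log2 fold change of -0.53 (SE 0.12, 95% interval -0.78 to -0.27, edgeR adjusted p = 0.467). With saline sample 1 left out, the log2 fold change was -0.55, with an edgeR adjusted p of 0.0364. DESeq2 gave an adjusted p of 0.197 over 6 libraries and of 0.142 without that sample, so the adjusted call of Gm48700 was made by edgeR alone. Leaving out each library in turn kept both RNAs lower at an unadjusted p under 0.05, with log2 fold changes of -0.60 to -0.41 for Gm48692 and -0.59 to -0.45 for Gm48700.

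Set against the counts of Nrxn3 in the same library, Gm48692 amounted to 4.21%, 4.69% and 5.60% in saline and 3.78%, 4.13% and 3.16% in morphine. For Gm48700 the shares were 2.15%, 2.37% and 2.61% in saline and 1.79%, 2.01% and 1.65% in morphine. Neither RNA had a morphine share that reached into its saline range. A read of unspliced Nrxn3 RNA that falls in either interval cannot be told apart from a read of the TEC transcript itself. Among all 1683 TEC genes tested, 18% were lower at an unadjusted p under 0.05, and the median log2 fold change of that class was -0.24, against 0.00 over 14280 protein-coding genes. The remaining TEC gene of the locus, Gm37980, lies on the opposite strand, shares 439 bases with Nrxn3 exons and measured 1.93 to 2.76 CPM in saline and 2.15 to 3.21 CPM in morphine (log2 fold change 0.22, edgeR adjusted p = 0.812). The genes annotated over the 8 were looked at after their values had been seen.

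**Figure D3:**
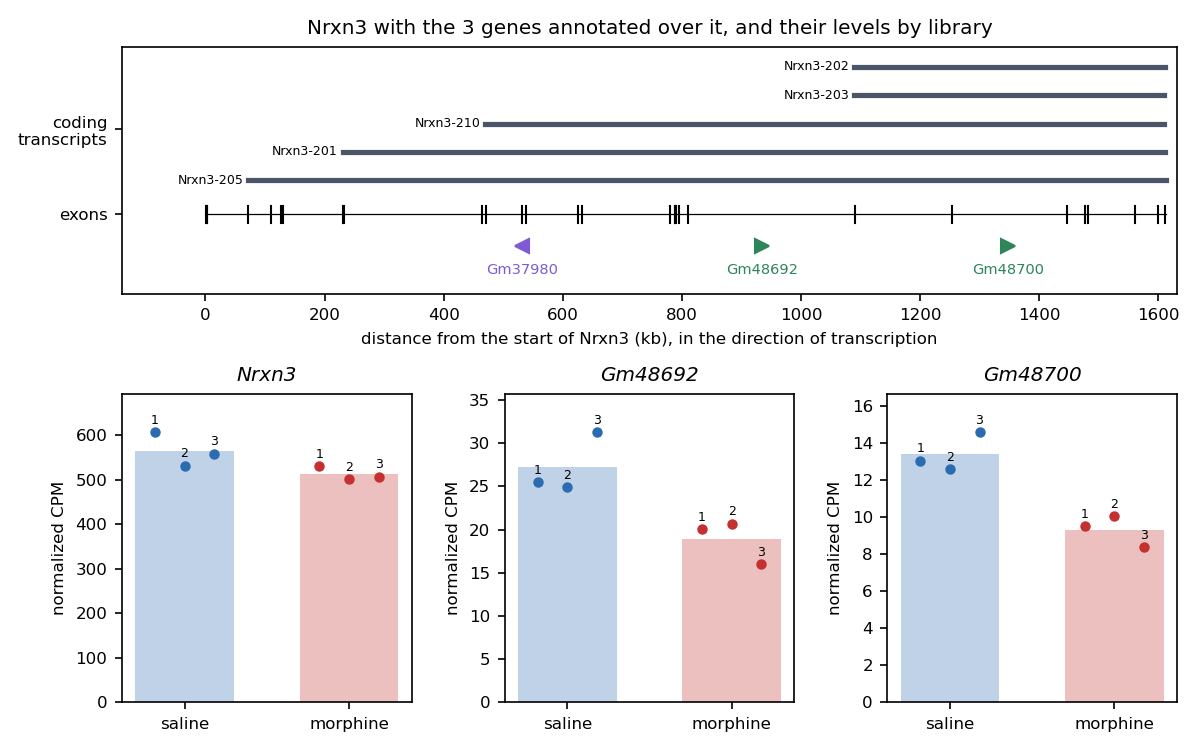
Upper panel, exons and coding transcripts of Nrxn3 in kb from its start, with arrowheads for TEC genes on the same strand (green) and the opposite strand (purple). Lower panels, normalized CPM by library with bars at the mean of 3, in which the saline and morphine means are 565 and 512 CPM for Nrxn3, 27.2 and 18.9 CPM for Gm48692, and 13.4 and 9.30 CPM for Gm48700.

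Across all 8 genes the annotation lists 14 overlapping genes, of which 10 were in the table and 7 were tested. Of these 7, 3 had an unadjusted p under 0.05, namely Gm48692 and Gm48700 (both lower) and Gm14964 (higher), against 7.72% of all genes tested. Gm14964 is annotated antisense to Nrxn2 at chr19:6530711-6532011 and shares 207 bases with its exons, and because the strand setting of the counting was not given in the sources used here, its reads cannot be told apart with certainty from Nrxn2 reads. It measured 9.75, 9.38 and 6.95 CPM in saline and 11.3, 9.38 and 12.8 CPM in morphine. The groups overlapped, and the log2 fold change was 0.36 (SE 0.16, edgeR adjusted p = 0.638). The call was lost without saline sample 2 or 3 or without morphine sample 1 or 3, where the value ranged from 0.23 to 0.42.

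The neuroligins, the postsynaptic partners, had no call among 3 genes. Nlgn1 (chr3:25426215-26332460, minus strand, 906.25 kb) measured 201, 227 and 238 CPM in saline and 224, 203 and 222 CPM in morphine. The groups overlapped, with saline sample 1 the lowest of the 6, and the log2 fold change was -0.04 (SE 0.069, 95% interval -0.19 to 0.11, edgeR adjusted p = 0.895). Without that sample it was -0.10 (edgeR adjusted p = 0.476).

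Nlgn2 (chr11:69823122-69837784, minus strand, 14.663 kb), the neuroligin of inhibitory synapses, measured 322, 326 and 315 CPM in saline and 347, 309 and 344 CPM in morphine. The means were 321 ± 5.55 and 333 ± 21.4 CPM, and the morphine values lay on both sides of the saline range. The log2 fold change was 0.05 (SE 0.056, 95% interval -0.07 to 0.18, edgeR adjusted p = 0.812), and 0.06 without saline sample 1 (edgeR adjusted p = 0.751).

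Nlgn3 (chrX:101299168-101325963, plus strand, 26.796 kb) measured 106, 95.4 and 91.7 CPM in saline and 101, 96.4 and 104 CPM in morphine. The overlap was complete, since saline sample 1 was the highest and the other saline samples the lowest of the 6. The log2 fold change was 0.04 (SE 0.063, 95% interval -0.10 to 0.18, edgeR adjusted p = 0.870), and 0.11 without saline sample 1 (edgeR adjusted p = 0.477). Over the 3 neuroligins, the 95% intervals on 6 libraries reached no lower than -0.19 and no higher than 0.18 on the log2 scale.

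The ratio of Nlgn2 to Nlgn1 FPKM was 3.71, 3.33 and 3.07 in saline and 3.60, 3.53 and 3.59 in morphine. The morphine ratios fell inside the saline range, and their SD was 0.0394 against 0.321 in saline. Over Nlgn1, 2 non-coding genes were tested. Gm37573, annotated within an intron on the same strand, measured 7.63, 10.8 and 16.1 CPM in saline and 8.68, 10.0 and 8.96 CPM in morphine (log2 fold change -0.31, edgeR adjusted p = 0.722). Its value rested on single libraries, since it was -0.54 without saline sample 1 (called, edgeR adjusted p = 0.0785) and 0.00 without saline sample 3. A830092H15Rik, antisense across the Nlgn1 start with 1229 shared exon bases, measured 5.28 to 5.82 CPM in saline and 4.80 to 6.36 CPM in morphine (log2 fold change 0.04, edgeR adjusted p = 0.952).

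Among the cerebellins, Cbln1 was called lower and rested on saline sample 1. Cbln1 (chr8:87468405-87472609, minus strand, 4.205 kb) is best known as the granule-cell ligand of the delta-2 receptor in the cerebellum. It measured 7.94, 3.39 and 2.76 CPM in saline, from 184, 72 and 54 counts, and 2.43, 3.15 and 2.08 CPM in morphine, from 44, 57 and 48 counts. Saline sample 1 was 2.34 times the highest other library, and the remaining saline values overlapped those of the morphine group. The means were 4.70 ± 2.82 and 2.55 ± 0.544 CPM, a log2 fold change of -0.90 (SE 0.37, 95% interval -1.72 to -0.08), or 0.536-fold, called by edgeR with an adjusted p of 0.619. Without saline sample 1 the log2 fold change was -0.28 (SE 0.24, edgeR adjusted p = 0.705) and the call was lost. It also lost its call without morphine sample 1 or 3, at -0.87 and -0.76.

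Beside this value stands the olfactory bulb list, which summed to 948 CPM in saline sample 1 and had 7 of 16 genes lower in morphine over 6 libraries and 0 lower without that sample. Of all genes tested, 4.96% were called lower over 6 libraries. Called bulb genes included Doc2g (log2 fold change -3.14 over 6 libraries and -0.39 without saline sample 1) and Cdhr1 (-3.45 and 0.30), both genes of bulb projection neurons. Calb2 (-2.18 and 0.18) and Dlx2 (-1.50 and -0.42) of the same list were also called. The thalamic list (9 genes) summed to 256 CPM in saline sample 1 and 226 to 242 CPM elsewhere. Of the choroid plexus list, 2 of 5 genes were tested, and they summed to 9.53 CPM in saline sample 1 and 2.25 to 3.09 CPM elsewhere. The part that RNA of another region plays in the Cbln1 value was not tested. The genes with the most similar pattern to Cbln1 over the 6 libraries, by root mean square difference of centred log2 CPM, were Tll1 (0.0740), Gxylt2 (0.133) and Cyp39a1 (0.139), each also highest in saline sample 1, at 1.91 to 2.40 times the next library. Gm2694, a non-coding gene annotated opposite Cbln1 with 0 shared exon bases, measured 1.55, 1.60 and 1.74 CPM in saline and 0.830, 1.16 and 1.47 CPM in morphine. Its groups did not overlap, and the log2 fold change was -0.48 (SE 0.27, not called, edgeR adjusted p = 0.678).

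**Figure D4:**
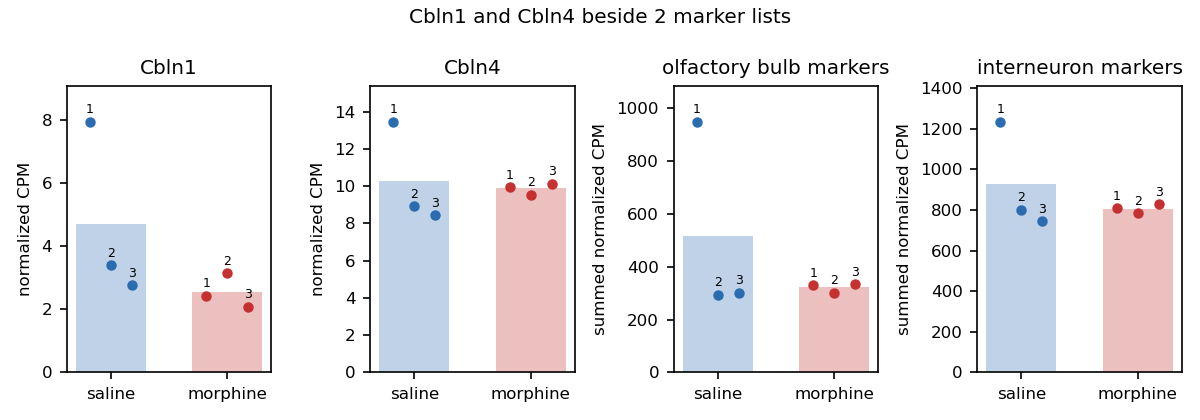
Normalized CPM of Cbln1 and Cbln4 beside the summed CPM of the olfactory bulb and interneuron marker lists, by library, with blue for saline, red for morphine, points marked with the sample number and bars at the mean of 3. Saline sample 1 is the highest point of every panel, and the other 5 libraries lie close together in each.

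Cbln4 (chr2:172036233-172043466, minus strand, 7.234 kb), a cerebellin made by subsets of cortical interneurons, measured 13.5, 8.91 and 8.43 CPM in saline and 9.95, 9.55 and 10.1 CPM in morphine. Saline sample 1 was again the highest, 1.33 times the next, and the morphine values lay between it and the other saline samples. The log2 fold change was -0.06 (SE 0.17, 95% interval -0.44 to 0.32, edgeR adjusted p = 0.935), and it turned to 0.19 without saline sample 1 (edgeR adjusted p = 0.607). The interneuron list moved with these values across libraries, as given above, and its part in them was not tested. The closest patterns to Cbln4 were those of Slc38a3 (0.0291), Irgm2 (0.0346) and Cnn3 (0.0413), each highest in saline sample 1, at no more than 1.36 times the next library. Likeness of pattern over 6 libraries, 1 of which stands apart, is a description of these libraries.

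Cbln2 (chr18:86711110-86718283, plus strand, 7.174 kb) was the most abundant of the 3 cerebellins and had saline sample 1 at the other end of its range. It measured 59.9, 72.2 and 70.9 CPM in saline and 75.0, 68.3 and 68.3 CPM in morphine, with that sample the lowest of the 6. The log2 fold change was 0.06 (SE 0.078, 95% interval -0.11 to 0.23, edgeR adjusted p = 0.849) and -0.02 without that sample (edgeR adjusted p = 0.933). The ratio of Cbln2 to Cbln4 FPKM was 4.46 in saline sample 1, 8.13 and 8.44 in saline samples 2 and 3, and 7.56, 7.17 and 6.76 in morphine. The fourth cerebellin, Cbln3, had 3 to 15 counts per library and gave a log2 fold change of -0.01 (SE 0.55, 95% interval -1.24 to 1.21, edgeR adjusted p = 0.995). At these counts and with 3 samples per group, differences within that interval remain compatible with the data.

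Genes whose products bind or process these proteins were counted in 7 lists. Of 78 partner genes in the table, 75 were tested, and 4 had an unadjusted p under 0.05, 3 higher and 1 lower in morphine, against 7.72% of all genes tested. On 5 libraries without saline sample 1, 6 of 73 were called, against 11.7% of all genes, with 4 higher (Lrrtm2, Nxph3, Rbfox1 and Bace1) and 2 lower (Khdrbs2 and Mdga2). The median log2 fold change of the 75 was 0.01, against -0.01 over all genes tested. At an adjusted p under 0.05, both edgeR and DESeq2 called 0 of the 75.

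Of 15 membrane partners, 1 was called, Lrrtm2, a postsynaptic neurexin ligand of excitatory synapses. It measured 104, 107 and 100.1 CPM in saline and 118, 123 and 117 CPM in morphine, without overlap, for a log2 fold change of 0.20 (SE 0.051, edgeR adjusted p = 0.573) that was also 0.20 without saline sample 1. Of 11 secreted ligands, 1 was called, the neurexophilin Nxph3, which binds alpha-neurexins. It measured 16.6, 16.0 and 16.2 CPM in saline and 20.7, 23.8 and 16.4 CPM in morphine. Saline sample 1 lay above morphine sample 3, so the groups overlapped, and the log2 fold change was 0.32 (SE 0.13, edgeR adjusted p = 0.619). The call did not hold without saline sample 2 or 3 or without morphine sample 1 or 2, where the value ranged from 0.19 to 0.32.

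Of 9 regulators of neurexin splicing, 1 was called, the neuronal splicing factor Rbfox1. It measured 238, 275 and 274 CPM in saline and 327, 278 and 301 CPM in morphine, without overlap, for a log2 fold change of 0.20 (SE 0.074, edgeR adjusted p = 0.616). It was 0.14 both without saline sample 1 and without morphine sample 1, and the call was lost without morphine sample 1 or 3. Gene totals carry no measure of splicing, so nothing on neurexin splice forms was analysed here. Of 23 neuroligin partners and regulators, 1 was called, the secreted matrix protein Thbs1. It measured 5.74, 3.39 and 4.44 CPM in saline and 3.26, 2.92 and 2.68 CPM in morphine, without overlap, for a log2 fold change of -0.62 (SE 0.22, edgeR adjusted p = 0.616). Leaving out saline sample 1 gave -0.41 (edgeR adjusted p = 0.478), and the call was lost there and without morphine sample 3. No gene was called among the 11 cytoplasmic neurexin partners, where Apba2 had the lowest p (log2 fold change 0.14, edgeR adjusted p = 0.673), or among 5 sheddases and related proteases that cut these proteins, where Bace1 did (0.07, edgeR adjusted p = 0.767). Bace1 was called without saline sample 1, at 0.14 (edgeR adjusted p = 0.274). The 1 further family gene reported was Cbln3.

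**Figure D5:**
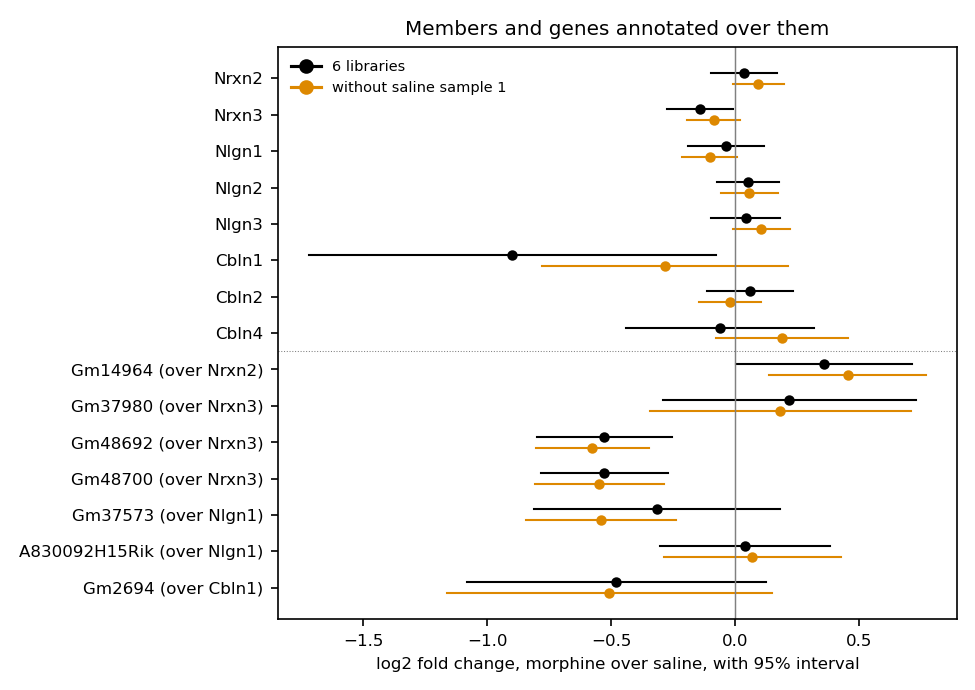
Log2 fold changes of morphine over saline with 95% intervals for the 8 genes (above the dotted line) and the 7 tested genes annotated over them (below), in black for 6 libraries and in orange without saline sample 1. The Cbln1 estimate moves from -0.90 to -0.28, whereas Gm48692 and Gm48700 move from -0.53 to -0.58 and to -0.55.

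The remaining marker lists were read for cell types whose share of the tissue could differ between the samples. Of all genes tested, 7.72% were called in either direction over 6 libraries and 11.7% without saline sample 1. Excitatory neuron markers had 2 of 7 genes called higher, Neurod6 (log2 fold change 0.24) and Neurod2 (0.21), and striatal neuron markers had 2 of 9, Pde10a (0.26) and Ppp1r1b (0.37), with sums of 222 to 233 CPM in saline and 256 to 264 CPM in morphine. Neurod6 (0.18), Neurod2 (0.15), Pde10a (0.30) and Ppp1r1b (0.25) stayed called without saline sample 1. Single genes were called higher among the neuron list (Thy1, 0.15), the deep layer list (Pou3f1, 0.35) and the astrocyte list (Aldh1l1, 0.17). Without saline sample 1, Pou3f1 (0.20) and Aldh1l1 (0.19) stayed called and Thy1 (0.11) did not. Single genes were called lower among the interneuron list (Adarb2, -0.52), the oligodendrocyte precursor list (Cspg4, -0.19), the thalamic list (Ntng1, -0.69) and the choroid plexus list (Aqp1, -2.23). Without saline sample 1, Adarb2 (-0.20) and Cspg4 (-0.23) stayed called, whereas Ntng1 (-0.13) and Aqp1 (0.08) lost their calls. No gene was called in the upper layer, oligodendrocyte, microglia, endothelial or meningeal lists over 6 libraries. With saline sample 1 left out, 6 of 8 oligodendrocyte genes were called higher (median log2 fold change 0.20), as were 4 of 8 deep layer genes, 3 of 16 olfactory bulb genes, 1 of 8 thalamic genes and 1 of 5 meningeal genes. The adjusted threshold was passed there by 1 striatal gene (Pde10a, edgeR adjusted p = 0.00724) and 1 deep layer gene. The oligodendrocyte list summed to 1602, 1425 and 1210.4 CPM in saline and 1435, 1694 and 1387 CPM in morphine. The striatal sums, unlike those of the bulb list, separated the groups as Nrxn3 did but in the opposite direction, and their part in the Nrxn3 value was not tested.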

How the data were processed

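RNA of mPFC samples (3 saline, 3 morphine) was measured from rRNA-depleted directional libraries. The deposited table holds, per gene and sample, raw counts of reads and FPKM values made by the authors. The submitters' processing notes list, with build mm10, limma 3.40.6, DESeq 1.8.3, DESeq2 1.26.0, StringTie 1.3.3, HTSeq 0.11.2, HISAT2 2.1.0 and cutadapt 1.9.3, but not which tool gave which value, while the methods name StringTie for the FPKM of lncRNAs. Deposited FPKM and counts kept a constant ratio across libraries (within 0.1%) for all 13342 genes checked.

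Here, counts were fitted with edgeR 4.0.16 in R 4.3.3 (TMM normalization, quasi-likelihood F test, two-sided, Benjamini-Hochberg over all genes tested), keeping a gene where 3 or more libraries had 10 or more counts. Called means an unadjusted p under 0.05 unless an adjusted p is named. CPM are TMM-normalized. Alternatives used DESeq2 1.42.0, edgeR with RLE factors, other filters, limma 3.58.1 on log2(FPKM + 0.1) or log2(FPKM + 1) with a minimum of 0.1 FPKM in 3 libraries or none, a replicate block, and each library left out. Scripts were tested on simulated data. Pairs of replicates all differed beyond sampling noise (chi-square over degrees of freedom 2.91 to 14.7).

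The 8 genes, the partner and marker lists and the tests were chosen with earlier results of these data known. The genes annotated over the 8, the printed sequences and DESeq2 without saline sample 1 were chosen after the data were seen. Named were each of the 8 genes, every called gene of a partner list or else that of lowest p, called marker genes (up to 4 per list), and the 3 genes of nearest pattern for a gene spanning over 0.5 in log2 CPM. Of the lists, 2 genes are not reported here and are left out of their counts. Symbols of 4 partner names are older and newer forms of the same genes.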

Additional observations from a re-analysis of the deposited data

How the results depend on the processing

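Over 6 libraries edgeR called 2 of the 8 genes (Nrxn3 and Cbln1). The count was 1 with RLE factors (Cbln1), 1 with limma under each of the 3 FPKM settings (Nrxn3), 0 with DESeq2 without saline sample 1, and 0 to 2 on leaving out each library, with 0 both without saline sample 1 and without morphine sample 3. Of the 8 genes, 1 passed the adjusted threshold with no filter on low counts (Cbln1, edgeR adjusted p = 0.0334) and 0 did otherwise. With no filter and 6 libraries, Gm48692 (edgeR adjusted p = 0.00155) and Gm48700 (edgeR adjusted p = 0.0254) passed it as well. Partner genes called (4) became 12 with no filter, 2 with each limma setting and 2 to 12 on leaving out each library, with 1 partner (Fam19a3) past the adjusted threshold with no filter. Called marker genes (18) ranged from 6 to 35 on leaving out each library.

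Signs reversed on leaving out single libraries for Nlgn1 (range -0.10 to 0.018, at or above 0 without saline sample 3 or morphine sample 2), Cbln2 (-0.020 to 0.11, below 0 without saline sample 1), Cbln4 (-0.18 to 0.19, above 0 without saline sample 1), Gm37573 (-0.54 to 0.0042, above 0 without saline sample 3), A830092H15Rik (-0.027 to 0.16, below 0 without saline sample 2, morphine sample 1 or morphine sample 3) and Cbln3 (-0.31 to 0.33, above 0 without morphine sample 1 or 2). Without saline sample 1, saline sample 2 or morphine sample 3, Cbln3 failed the filter on low counts, so its range leaves those edgeR fits out. With DESeq2 without saline sample 1, Cbln2 was -0.019, Cbln4 0.19 and Cbln3 0.26. None of these genes was called over 6 libraries in the edgeR fit of the report, and Gm37573 was called with no filter on low counts (-0.31). Of 324 single-gene values under the alternatives, 266 kept direction and side of the threshold, 37 lost a call and 8 gained one, and the cause was not tested.

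Same-numbered saline and morphine samples did not deviate together (correlations 0.015, 0.0013 and -0.021), and samples of unlike number gave -0.035 to 0.044. No pairing by number was seen, but with 3 samples per group these values cannot exclude one. With the replicate block, 2 of the 8 genes were called (Nrxn3 -0.14, Cbln1 -0.77) and 5 partner genes, and Gm14964 lost its call.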
